A study of Mus musculus with 2 samples.

Results

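The genes described here are 10 members of the circadian clock, Dbp, Tef, Hlf, Nr1d1, Nr1d2, Per1, Per2, Per3, Arntl and Npas2, chosen by name among the 19059 genes of the count tables. Their levels were taken by cell type in both libraries, to ask whether the genes of each clock phase differed the same way in each cell type of the skin. The samples were dissociated and fixed cells from punch biopsies of untreated dorsal skin, 1 from a wildtype C57BL/6J mouse and 1 from an Eppk1-/- mouse backcrossed into C57BL/6J. Eppk1 encodes epiplakin, a plakin that binds keratin filaments in epithelial cells. Age, sex and the time of day at which each mouse was killed are not given in the sources used here. With 1 library per genotype there are no replicates and no test, and genotype cannot be told apart from the mouse, the hour of sampling or the library. Each interval in brackets is an exact 95% interval that covers counting error only. A difference is called past the size rule where the log2 ratio of Eppk1-/- over wildtype was 0.5 or more, or -0.5 or less.

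The clock is a loop of transcription factors. The proteins of Arntl (BMAL1) and of Clock or its relative Npas2 bind E-box sequences and switch on the Per, Cry, Nr1d1, Nr1d2, Dbp and Tef genes. PER and CRY proteins then hold that activity down, while the REV-ERB proteins made from Nr1d1 and Nr1d2 repress Arntl and Npas2, so that these activators peak when Nr1d1 and Dbp are low. DBP, TEF and HLF are related bZIP factors that bind D-boxes and carry the rhythm to output genes. Epidermis, fibroblasts and macrophages are known to keep clocks of their own, and Per1 is also induced by glucocorticoids and by acute stimuli.

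The bases just upstream of the start of 6 members are shown because E-boxes, D-boxes and REV-ERB sites are the elements through which the loop acts. They are the 250 bases before the start in RefSeq on GRCm38.p6, read 5′ to 3′ on the strand of the gene. Capitals mark a match on either strand to CACGTG (E-box), CACGTT (an E-box variant), TTATGNAA (D-box), AGGTCA (core of the REV-ERB site) or TGACGTCA (CRE).
Dbp, chr7:45704997-45705246, plus strand: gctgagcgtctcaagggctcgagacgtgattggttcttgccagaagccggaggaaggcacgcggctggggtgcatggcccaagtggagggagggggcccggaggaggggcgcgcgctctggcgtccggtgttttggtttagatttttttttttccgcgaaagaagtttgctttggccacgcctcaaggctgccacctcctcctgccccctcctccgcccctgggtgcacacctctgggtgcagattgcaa
Tef, chr15:81802423-81802672, plus strand: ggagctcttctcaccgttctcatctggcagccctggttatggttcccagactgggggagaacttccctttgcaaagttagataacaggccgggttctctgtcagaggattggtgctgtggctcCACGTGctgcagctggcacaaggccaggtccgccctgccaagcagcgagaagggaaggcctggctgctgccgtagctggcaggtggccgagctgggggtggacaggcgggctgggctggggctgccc
Nr1d1, chr11:98775378-98775627, minus strand: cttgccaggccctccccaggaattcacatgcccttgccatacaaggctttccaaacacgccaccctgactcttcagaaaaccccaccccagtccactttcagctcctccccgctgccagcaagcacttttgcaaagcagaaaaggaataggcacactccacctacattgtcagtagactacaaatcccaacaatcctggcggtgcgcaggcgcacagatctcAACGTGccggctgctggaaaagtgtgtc
Nr1d2, chr14:18239107-18239356, minus strand: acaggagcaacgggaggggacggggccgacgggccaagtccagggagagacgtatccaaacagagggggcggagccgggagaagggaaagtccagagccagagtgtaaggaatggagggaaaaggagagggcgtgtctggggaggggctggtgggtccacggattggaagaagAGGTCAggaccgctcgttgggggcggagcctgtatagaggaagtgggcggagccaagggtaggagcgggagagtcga
Per1, chr11:69098699-69098948, plus strand: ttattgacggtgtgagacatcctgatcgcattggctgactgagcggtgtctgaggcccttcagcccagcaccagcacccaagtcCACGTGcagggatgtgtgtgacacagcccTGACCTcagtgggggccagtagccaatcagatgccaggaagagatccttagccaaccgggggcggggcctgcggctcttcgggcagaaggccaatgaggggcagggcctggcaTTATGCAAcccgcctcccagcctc
Per3, chr4:151044666-151044915, minus strand: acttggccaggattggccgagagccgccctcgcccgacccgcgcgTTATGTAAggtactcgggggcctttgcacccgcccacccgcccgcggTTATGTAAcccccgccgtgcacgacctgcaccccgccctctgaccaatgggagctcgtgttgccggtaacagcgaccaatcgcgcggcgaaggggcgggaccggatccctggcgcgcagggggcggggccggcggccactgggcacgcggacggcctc
In Tef the capitals are an E-box 127 bases before the start, and in Nr1d1 an E-box variant on the opposite strand 28 bases before it. Nr1d2, itself a REV-ERB gene, held an AGGTCA 77 bases upstream. Per1 held an E-box at 166 bases, an AGGTCA on the opposite strand at 137 and a D-box at 24 bases before the start, and Per3 held a D-box at both 205 and 158 bases. The printed Dbp window has no match to these letters. Of the members not printed, Hlf held the CRE 9 bases before its start and Arntl an AGGTCA 32 bases after it. Such matches are common: among 32851 windows of 300 bases, which run to 50 bases past the start, 7.15% held CACGTG, 4.68% CACGTT, 3.38% the D-box, 16.3% AGGTCA and 1.79% the CRE. Windows were found for 9 of the 10 members, not for Per2. In the gene annotation of GRCm38, Hlf, Nr1d1 and Per1 lie on chromosome 11, Dbp and Arntl on 7, Npas2 and Per2 on 1, Per3 on 4, Nr1d2 on 14 and Tef on 15. Tef (chr15:81802421-81826863) is the only member on the chromosome of Eppk1 and lies 5.68 Mb from it. The starts of this annotation differ from those of RefSeq used for the windows. The printed windows of Tef and Per1 lie within the gene as annotated here, and that of Dbp reaches into it.

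After the cell filter, 8875 wildtype and 8617 Eppk1-/- cells remained, from libraries of 77638793 and 65118304 UMIs (single counted molecules). Both libraries were pooled by probe barcode, so 1141 droplet barcodes occurred in both among the cells kept. A gate on marker genes gave 6 cell types with at least 50 cells in each library: 5505 wildtype and 4048 Eppk1-/- keratinocytes, 1779 and 2739 fibroblasts, 598 and 866 macrophages, 64 and 83 sebaceous cells, 154 and 126 T and NK lymphocytes, and 50 and 62 mast cells. Markers that the gate did not use were 4.65 to 1126 times as high in their own type as in the next type. Eppk1 in keratinocytes stood at 3055 counts per 1000000 UMIs (CPM) in wildtype and at 783 in Eppk1-/- cells, a log2 ratio of -1.96 (-1.99 to -1.94), so the knocked-out gene was lower but not absent. Whether its probes lie in the deleted part is not given in the sources used here.

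**Figure D1:**
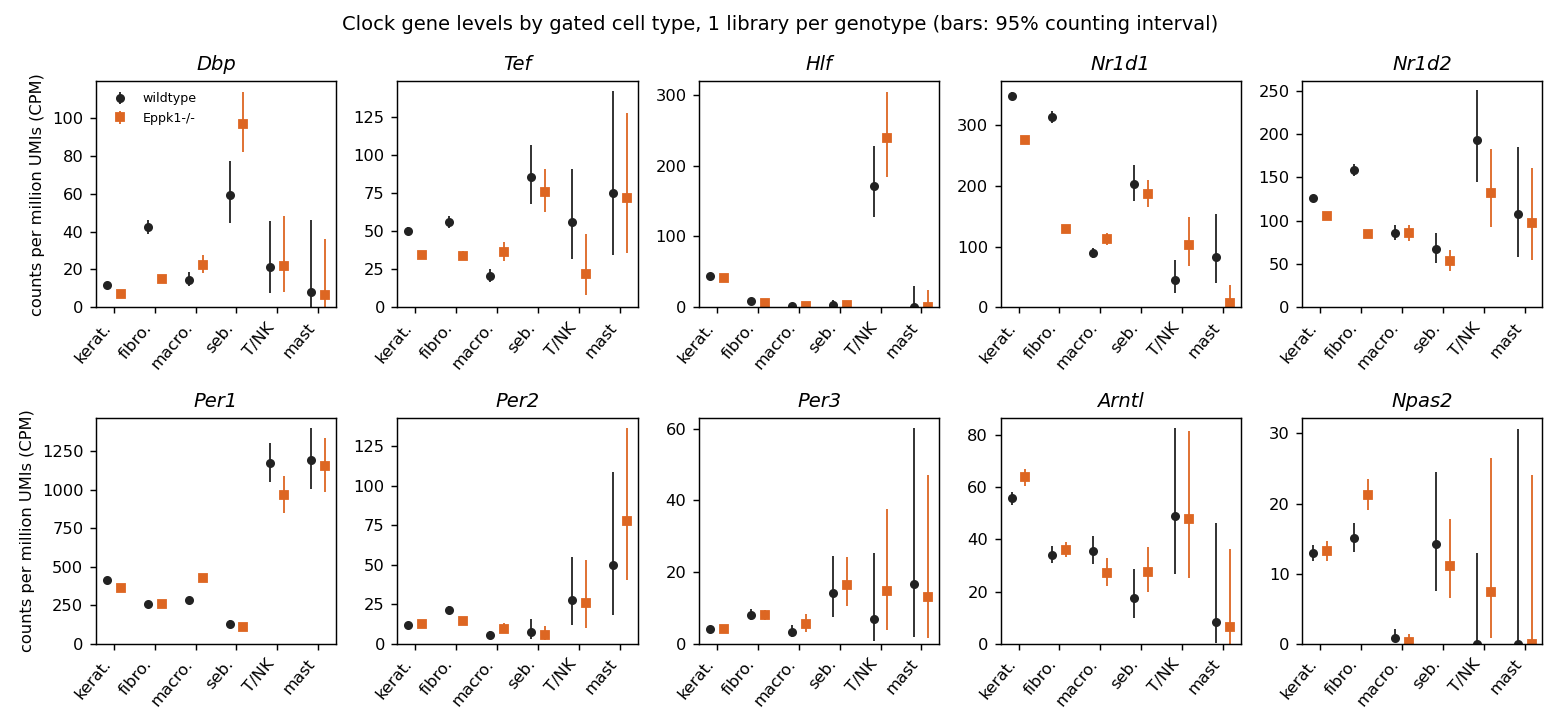
Level of each clock gene (CPM, linear axis) in the 6 gated cell types, 1 point per library (black circles wildtype, orange squares Eppk1-/-), with bars for the 95% counting interval. Dbp and Nr1d1 are lower in Eppk1-/- fibroblasts, Dbp is higher in Eppk1-/- macrophages and sebaceous cells, and Hlf is highest in T and NK lymphocytes.

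In keratinocytes, the D-box factors Dbp and Tef were lower in the Eppk1-/- library, the REV-ERB genes and Per1 were lower by less, and Arntl was slightly higher. All 10 members could be counted, which here means at least 50 UMIs over both libraries. Dbp stood at 11.6 CPM in wildtype and 6.92 in Eppk1-/- keratinocytes, a log2 ratio of -0.74 (-1.01 to -0.48). Tef stood at 50.4 and 34.4 CPM, a log2 ratio of -0.55 (-0.67 to -0.43). These were the 2 members past the size rule, both lower, where 5.16% of 11773 genes were past it in that direction and 2.45% in the other. Hlf, their relative, was at 44.4 and 42.0 CPM, a log2 ratio of -0.08 whose interval held 0 (-0.19 to 0.03).

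The REV-ERB genes differed by less than the size rule but beyond counting error. Nr1d1 was at 349 CPM in wildtype and 276 in Eppk1-/- keratinocytes, a log2 ratio of -0.34 (-0.38 to -0.30). Nr1d2 was at 126 and 105 CPM, -0.27 on the log2 scale (-0.34 to -0.19). Of the Period genes, whose proteins close the loop, Per1 was at 416 and 361 CPM, with a log2 ratio of -0.20 (-0.24 to -0.16). Per2 (11.8 and 12.7 CPM) and Per3 (4.05 and 4.15 CPM) had intervals that held 0. The activator Arntl lay on the other side, at 55.7 CPM in wildtype and 63.7 in Eppk1-/- cells, a log2 ratio of 0.20 (0.10 to 0.29), while Npas2 was at 12.9 and 13.2 CPM. The 8 output members (all but Arntl and Npas2) had a median log2 ratio of -0.23, beside -0.03 for all genes counted in keratinocytes.

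The parts of the epidermis gave similar values for the D-box factors. Dbp had a log2 ratio of -0.76 in basal keratinocytes (those rich in Krt5, Krt14 and integrins) and of -0.78 in differentiated keratinocytes (rich in Krt1, Krt10 and Lor). Tef was at -0.66 and -0.53, and these were again the 2 of 10 members past the size rule in each part, where 6.77% of genes in basal and 3.91% in differentiated cells were past it downward and 2.51% and 5.39% upward. In differentiated cells the calls depended on the setting: Dbp was at -0.47 with each cell weighing the same and Tef at -0.35 in clusters and -0.40 with no cell filter, while Npas2 reached 0.72 with each cell weighing the same and Per2 -0.56 when thinned to 2000 UMIs. Nr1d1 had a ratio of -0.49 (-0.55 to -0.42) in basal and -0.19 (-0.26 to -0.12) in differentiated cells. Across clusters this contrast was mixed. Nr1d1 was at -0.56, -0.65 and -0.59 in the basal clusters led by Epgn, Fst and Krt24, each with its interval below 0. It was at -0.09 in the basal cluster led by Top2a and Mki67. Of the differentiated clusters, the one led by Lce genes and Lor was at -0.84 (-1.03 to -0.66). The one led by Krt78 and Krt77 was at -0.10. Hlf was at -0.27 (-0.46 to -0.09) in basal and -0.02 (-0.19 to 0.16) in differentiated cells. The follicle gate held 195 and 102 keratinocytes. Krt6a and Cd34, follicle markers that the gate did not use, summed to 1592 CPM in wildtype and 438 in Eppk1-/- cells. The markers of the gate summed to 15361 and 15612 CPM, and whether the 2 pools differed in make-up was not tested. In these follicle keratinocytes, 5 members could be counted. There Per1 was at 699 CPM in wildtype and 470 in Eppk1-/- cells (log2 -0.57, -0.78 to -0.37) and Tef at 70.8 and 43.1 CPM (log2 -0.70, -1.44 to -0.04), where 11.4% of genes were past the rule downward. Arntl there was at 32.3 and 46.6 CPM, a log2 ratio of 0.54 that passed the rule upward, as 7.69% of genes did, with an interval that held 0 (-0.25 to 1.29).

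Clusters set without the clock genes gave the same direction for most members. Among 10 keratinocyte clusters with at least 50 cells per library, Nr1d1 was lower in 9 (log2 -0.84 to 0.34) and Nr1d2 in 10 (-0.69 to -0.05). Dbp was lower in 5 of the 5 clusters where it could be counted and Tef in 8 of 9. In the clusters under 50 UMIs, Dbp was higher in those led by Krt1 (log2 0.53) and Fst (0.19). It was lower in those led by Fgf18 (-1.52), Pthlh (-0.47) and Top2a (-1.59), and the interval held 0 in each of these clusters. Arntl was higher in 7 of 8. The cells of all these clusters came from the same 2 mice, so the clusters are not replicates.

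Fibroblasts, which make the collagen matrix of the dermis, held the largest ratios of Dbp, Nr1d1 and Nr1d2 among the types where each could be counted. Dbp was at 42.3 CPM in wildtype and 14.9 in Eppk1-/- fibroblasts, a log2 ratio of -1.51 (-1.72 to -1.29). Nr1d1 was at 313 and 129 CPM, a log2 ratio of -1.28 (-1.35 to -1.20). Nr1d2 was at 158 and 85.0 CPM, or -0.90 on the log2 scale (-0.99 to -0.80). Tef was at 56.2 and 33.9 CPM (log2 -0.73, -0.89 to -0.57), and Per2, a repressor of the loop, at 21.7 and 14.5 CPM (log2 -0.58, -0.82 to -0.33). In all, 5 of 10 members were past the size rule downward, where 7.35% of 11731 genes were, and 0 upward, where 8.67% of genes were. Per2 was short of the rule with no cell filter (-0.38) and with each cluster weighing the same (-0.39), and Hlf, short of it as reported, was past it in clusters (-0.53), under a stricter gate (-0.55), when thinned (-0.97) and with clusters drawn over 90% from 1 library left out (-0.54). Of the 11731 genes, 100 had a lower ratio than Dbp and 132 a lower ratio than Nr1d1.

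Per1 did not share this difference. It was at 262 CPM in wildtype and 261 in Eppk1-/- fibroblasts, a log2 ratio of -0.01 (-0.07 to 0.06). Per3 was at 8.02 and 7.95 CPM, and Hlf at 8.24 and 6.65 CPM (log2 -0.31, -0.70 to 0.08). On the activator side, Npas2 was at 15.1 CPM in wildtype and 21.2 in Eppk1-/- fibroblasts (log2 0.49, 0.24 to 0.75), just inside the size rule, and Arntl at 34.1 and 36.1 CPM (log2 0.08, -0.09 to 0.26). The output members had a median log2 ratio of -0.65, and all genes counted in fibroblasts one of 0.05. Carried-over keratinocyte RNA, read from Eppk1, came to 2.34% and 2.28% of the keratinocyte level in fibroblasts, which amounts to 0.641% to 4.87% of the level of Dbp, Tef, Nr1d1, Nr1d2 or Per2 there.

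**Figure D2:**
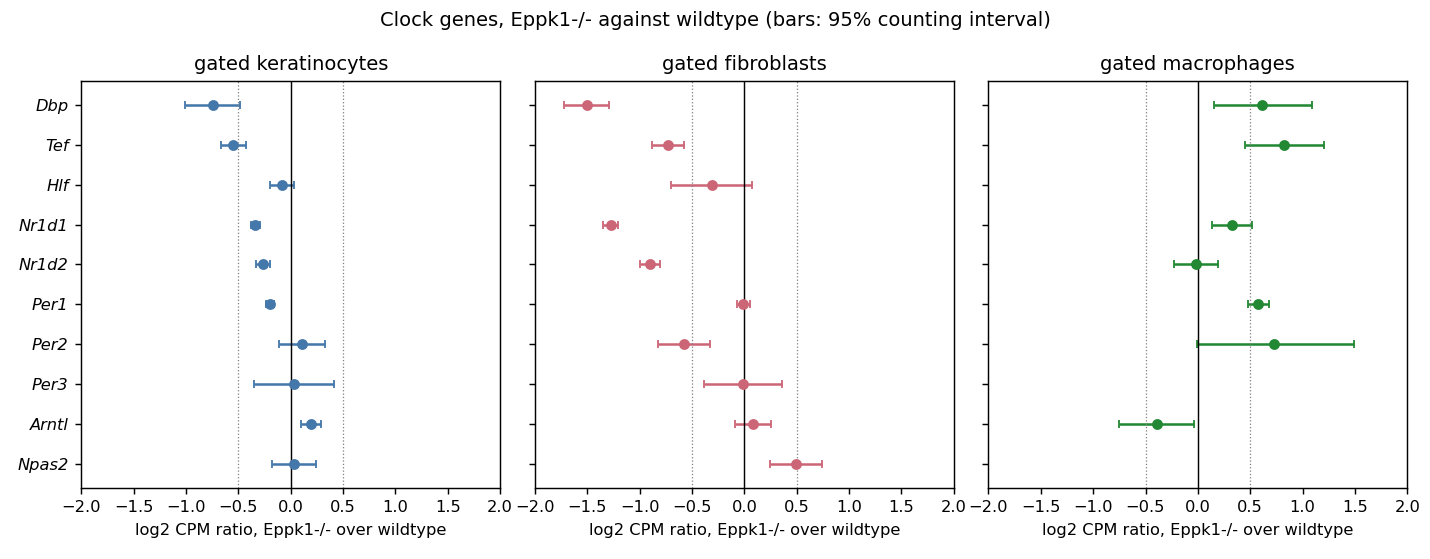
Log2 CPM ratio of Eppk1-/- over wildtype for each clock gene in gated keratinocytes, fibroblasts and macrophages, with bars for the 95% counting interval and dotted lines at the size rule of 0.5 either way; genes under 50 UMIs have no point. Dbp, Tef and Nr1d1 lie left of 0 in keratinocytes and fibroblasts and right of 0 in macrophages.

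The fibroblast clusters differed in their share of each library: the cluster led by Plac8 and Inmt held 321 wildtype and 21 Eppk1-/- cells, and another held 242 and 1155. Within the 5 clusters with at least 50 cells per library, Nr1d1 was lower in 5 (log2 -1.89 to -0.76) and Nr1d2 in 5 (-1.46 to -0.58), each with its interval below 0. Dbp was lower in the 4 clusters where it could be counted (-2.72 to -1.28) and Tef in 5 (-1.39 to -0.05). Per1 was lower in 3 and higher in 2 (-0.60 to 0.39), with 1 interval below 0 and 1 above 0. The part of this spread in its ratio near 0 over all fibroblasts was not tested. Npas2 was higher in 3 of 4 (-0.65 to 1.13). With cells of clusters drawn over 90% from 1 library left out, Nr1d1 had a log2 ratio of -1.43.

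In macrophages, the phagocytes of the dermis, the pooled ratios of several output members pointed the other way. Dbp was at 14.6 CPM in wildtype and 22.3 in Eppk1-/- macrophages, a log2 ratio of 0.61 (0.15 to 1.09) that turned to -0.028 with each cell weighing the same. Tef was at 20.5 and 36.4 CPM (log2 0.82, 0.45 to 1.21), and Per1 at 286 and 427 CPM (log2 0.58, 0.48 to 0.68). With Per2, at 5.75 and 9.54 CPM and an interval that just held 0 (-0.01 to 1.49), 4 of the 7 members that could be counted were past the size rule upward, where 6.23% of 9122 genes were, and 0 downward, where 20.1% of genes were. Nr1d1 was at 89.3 and 112 CPM (log2 0.33, 0.13 to 0.52), Nr1d2 at 86.2 and 85.4 CPM, and Arntl at 35.5 and 27.1 CPM (log2 -0.39, -0.75 to -0.03). Hlf, Per3 and Npas2 had under 50 UMIs. The median log2 ratio was 0.60 for the 6 output members counted and -0.14 for all genes counted.

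The macrophage clusters differed in their share of each library, and the part of this mix in the pooled ratios was not tested. A cluster led by Fcna, Lyve1 and Siglec1 held 234 wildtype and 5 Eppk1-/- cells, and with its cells almost all from 1 library it may be that library and not a type. A cluster led by Ccl8 and Cd209b held 235 and 694 cells, and one led by Stab1 and C1qb held 119 and 147. A further 76 wildtype and 73 Eppk1-/- gated macrophages fell in a cluster led by Lyz1, Il1b and Mmp12. In that cluster 94 wildtype and 106 Eppk1-/- cells met no gate. In the wildtype library, Dbp was at 11.5 CPM in the Fcna and Lyve1 cluster (7.92 to 16.2) and 23.0 CPM in the Ccl8 cluster, and Tef was at 15.0 CPM (10.9 to 20.2) and 33.5 CPM. Wildtype Nr1d1 was at 89.3 CPM in the Fcna and Lyve1 cluster, 125 CPM in the Ccl8 cluster and 227 CPM in the Stab1 cluster. In the same order, wildtype Per1 was at 273, 287 and 445 CPM, and wildtype Arntl at 43.3, 27.9 and 56.0 CPM. The cluster nearly missing from the Eppk1-/- library thus had lower wildtype values of Dbp, Tef and Nr1d1 than the other two of these clusters, although Dbp and Tef rested on 7 and 9 wildtype UMIs in the Stab1 cluster. It was not the lowest of all: in the Lyz1 and Il1b cluster wildtype Dbp was at 6.89 CPM and Nr1d1 at 56.9 CPM (44.0 to 72.4).

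Between genotypes within the Ccl8 cluster, Dbp was at 23.0 CPM in wildtype and 22.4 in Eppk1-/- cells (log2 -0.05, -0.62 to 0.56), and Tef at 33.5 and 35.5 CPM (log2 0.07, -0.39 to 0.57). Nr1d1 was at 125 and 124 CPM there (log2 -0.01, -0.25 to 0.24), and in the Stab1 cluster at 227 and 215 CPM (log2 -0.07, -0.57 to 0.42). In the Stab1 cluster Dbp was at 19.6 and 33.7 CPM (log2 0.75, -0.76 to 2.41) and Tef at 25.2 and 40.4 CPM (log2 0.66, -0.69 to 2.11), each on under 50 UMIs and with an interval that held both 0 and the pooled ratio. The Ccl8 cluster did not show the higher pooled level of Dbp, Tef and Nr1d1, and the Stab1 cluster did not show that of Nr1d1. Arntl was at 27.9 and 30.3 CPM in the Ccl8 cluster (log2 0.11, -0.40 to 0.65). In the Stab1 cluster it was at 56.0 and 23.6 CPM on under 50 UMIs (log2 -1.18, -2.73 to 0.05). Nr1d2 was lower in the Ccl8 cluster, at 118 and 89.8 CPM (log2 -0.40, -0.66 to -0.13). Per1 kept a higher level there, at 287 CPM in wildtype and 423 in Eppk1-/- cells (log2 0.56, 0.41 to 0.71), but not in the Stab1 cluster (445 and 458 CPM, log2 0.04, -0.30 to 0.38). Early genes of dissociation, a list of 16 with Fos, Jun and Egr1, were also higher: 14 of 16 were higher in Eppk1-/- macrophages with a median log2 ratio of 0.69, and 15 of 16 were higher in the Ccl8 cluster with a median of 0.37. In the Stab1 cluster, where Per1 differed little, 16 of 16 were higher with a median of 0.39. All genes counted had a median of -0.14 in pooled macrophages, -0.14 in the Ccl8 cluster and -0.10 in the Stab1 cluster. The part of the early genes in the result was not tested.

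**Figure D3:**
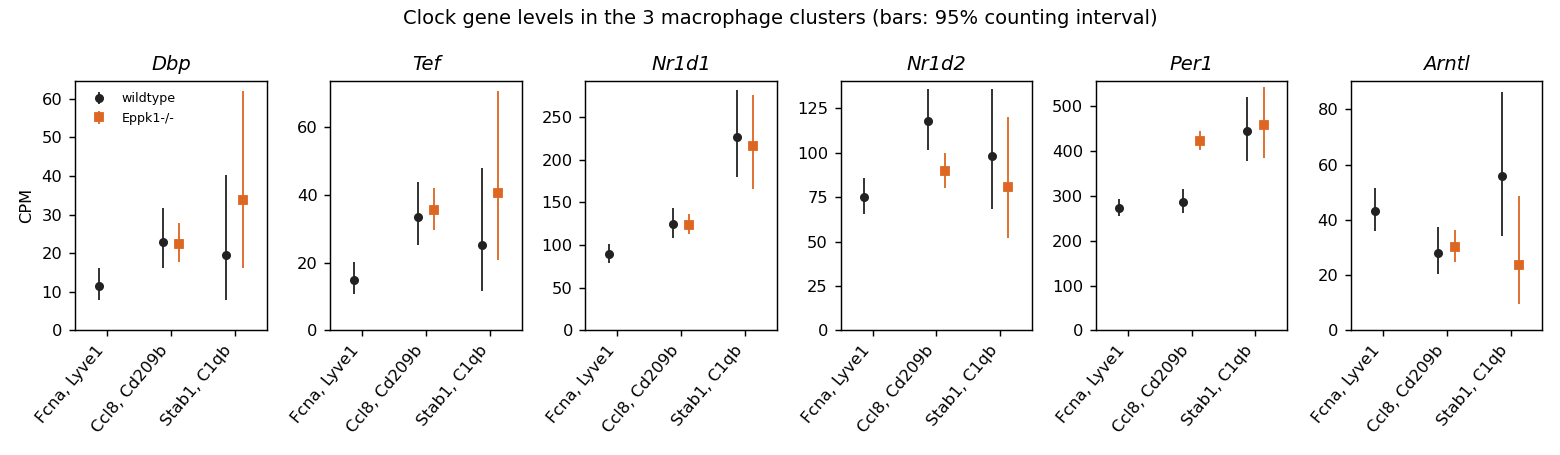
CPM of 6 clock genes in the 3 macrophage clusters, named by leading genes, for wildtype (black circles) and Eppk1-/- (orange squares) cells, with bars for the 95% counting interval; the Fcna and Lyve1 cluster had 5 Eppk1-/- cells and has no orange point. Within the Ccl8 and Cd209b cluster the points of Dbp, Tef and Nr1d1 lie together, while Per1 is higher and Nr1d2 lower in Eppk1-/- cells.

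Leaving out the cells of clusters drawn over 90% from 1 library, a choice made after seeing these values, lowered the count past the rule upward in macrophages from 4 to 1, with log2 ratios of 0.10 for Dbp, 0.33 for Tef, 0.47 for Per1 and 0.09 for Arntl. With each cluster of at least 50 cells per library given the same weight, the count was 0. Macrophages also differed in depth, with a median of 7228 UMIs per wildtype and 4724 per Eppk1-/- cell, and its part in the result was not tested. The 10 keratinocyte gate markers summed to 1046 CPM in wildtype and 611 in Eppk1-/- macrophages, with 0 of them absent. Carried-over keratinocyte RNA read from Eppk1 ran the other way, at 0.887% of the keratinocyte level in wildtype and 1.89% in Eppk1-/- macrophages. With that share taken off, the ratio of Dbp was 0.62. The share rests on the Eppk1 signal left in the knockout and disagreed with the markers, so the part of carried-over RNA was not settled.

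**Figure D4:**
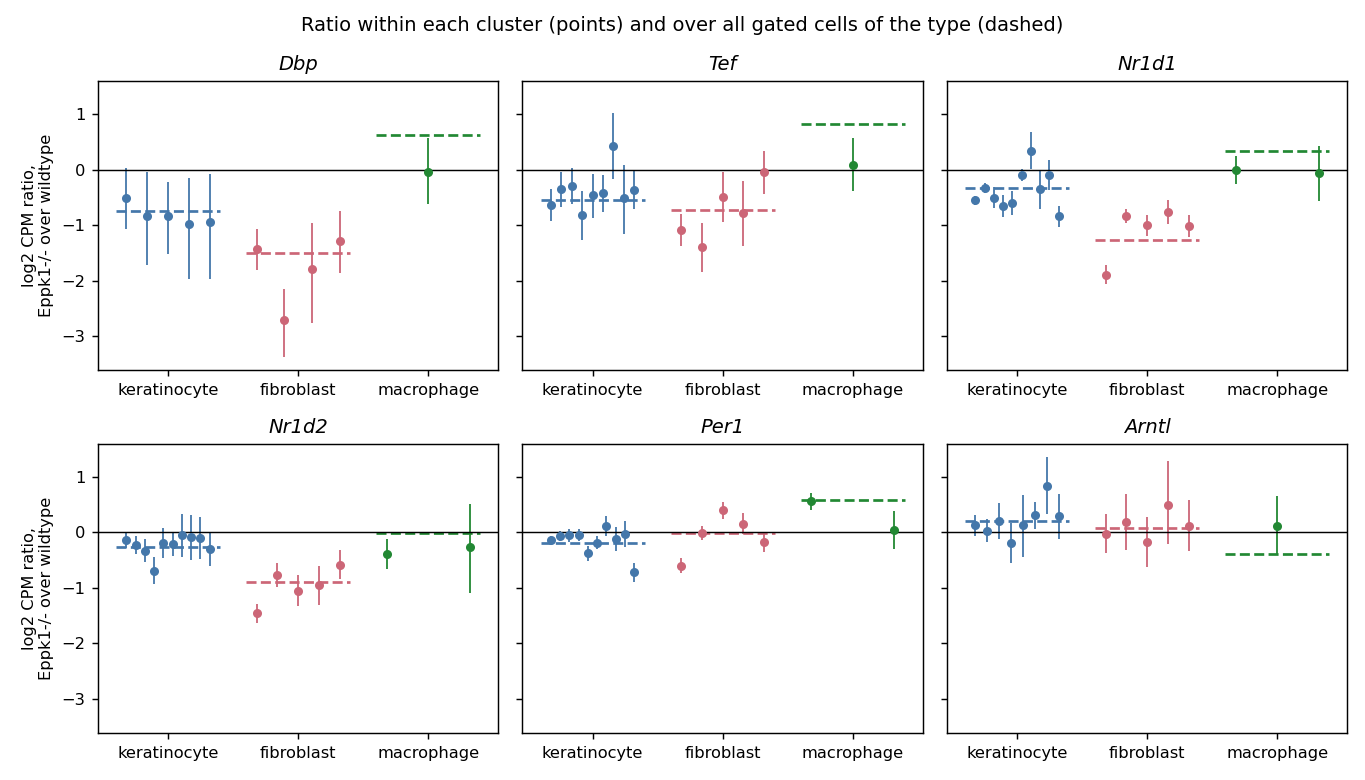
Log2 CPM ratio of Eppk1-/- over wildtype for 6 clock genes within each cluster that held at least 50 cells per library and 50 UMIs of the gene (points, with 95% counting intervals), and over all gated cells of the type (dashed lines). The fibroblast points of Dbp, Nr1d1 and Nr1d2 lie below 0, and the macrophage points of Dbp, Tef and Nr1d1 lie near 0, below the dashed line.

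The smaller types allowed few members. In sebaceous cells, the lipid-rich cells of the follicle gland, Dbp was the higher in Eppk1-/- cells, at 59.3 CPM in wildtype and 96.8 in Eppk1-/- cells (log2 0.70, 0.25 to 1.18), and Arntl was at 17.6 and 27.5 CPM with an interval that held 0. Tef was at 85.7 and 75.9 CPM (log2 -0.18, -0.60 to 0.26), and the intervals of Nr1d1, Nr1d2 and Per1 held 0 as well. Hlf, Per2, Per3 and Npas2 had 7 to 38 UMIs. Dbp and Arntl, 2 of the 6 members counted, were past the rule upward, where 6.55% of 5699 genes were. In the sebaceous cluster, which held 157 wildtype and 135 Eppk1-/- cells, Dbp had a log2 ratio of 0.98 (0.56 to 1.44), while Arntl, with a log2 ratio of 0.22, was short of the rule. Nr1d1 there was at 311 and 224 CPM (log2 -0.47, -0.67 to -0.27), and Nr1d2 at 111 and 61.6 CPM (log2 -0.84, -1.21 to -0.49). Members of one clock phase thus stood on both sides of 0 in this cluster. Of its cells, 43 wildtype and 20 Eppk1-/- cells were gated as keratinocytes, and 50 and 30 met no gate. In the gated sebaceous cells the intervals of Nr1d1 and Nr1d2 held 0, so the contrast was not seen there. The gated cells were deeper in the Eppk1-/- library, with a median of 17737 against 12155 UMIs, and the ratio of Dbp was 0.10 with each cell thinned to 2000 UMIs and 0.35 with each cell weighing the same.

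In T and NK lymphocytes, Per1 was at 1171 CPM in wildtype and 965 in Eppk1-/- cells (log2 -0.28, -0.52 to -0.04). Under other settings this ratio ranged from -0.31 to -0.02. Per1 was at 758 and 891 CPM in the cluster led by Icos and Gzmc (log2 0.23, -0.03 to 0.49). In the cluster led by Trdc it was at 1077 and 936 CPM (log2 -0.20, -0.48 to 0.07). Hlf was at 172 and 239 CPM and Nr1d2 at 193 and 132 CPM, each with an interval that held 0. Nr1d2, at a log2 ratio of -0.54, was 1 of the 3 members counted to pass the rule downward, as 11.8% of 2541 genes did, but it was at -0.11 in clusters, -0.33 with each cell weighing the same and -0.27 when thinned. Dbp, Tef, Nr1d1, Per2, Per3, Arntl and Npas2 had 2 to 41 UMIs. In mast cells Dbp, Tef, Hlf, Nr1d1, Nr1d2, Per2, Per3, Arntl and Npas2 had 0 to 28 UMIs and Per1 could be counted, at 1189 and 1152 CPM, and it did not pass the rule, which 12.8% of 1032 genes passed upward and 9.98% downward.

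The directions were then set side by side, bearing in mind that all cell types came from the same 2 mice. In keratinocytes and fibroblasts, 4 of 10 members (Dbp, Tef, Nr1d1 and Nr1d2) had intervals below 0 in both, none had intervals on opposite sides, and 6 had an interval that held 0 in at least 1 of them. Between keratinocytes and macrophages, 5 of the 7 members counted in both (Dbp, Tef, Nr1d1, Per1 and Arntl) had intervals on opposite sides of 0. Between fibroblasts and macrophages these were 3 of 7 (Dbp, Tef and Nr1d1). The share of all genes whose intervals fell in these ways was not computed, so these counts have no background beside them. The pooled directions therefore matched between keratinocytes and fibroblasts for Dbp, Tef, Nr1d1 and Nr1d2. In macrophages Dbp, Tef and Nr1d1 lay on the other side, while the interval of Nr1d2 held 0. Ratios between mice killed at an hour that is not given show direction and do not measure phase. The macrophage side of these counts rests on pooled cells, with Dbp at -0.028 when each cell weighs the same and Dbp, Tef and Nr1d1 near 0 within the Ccl8 cluster. Arntl in that cluster was at 0.11 with an interval that held 0 (-0.40 to 0.65). Arntl had its interval above 0 in keratinocytes only, and Npas2 in fibroblasts only, and the difference between these cell types was not tested.

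Of 18 other clock genes, 18 could be counted in keratinocytes, 9 higher and 9 lower, and Cry2 alone passed the size rule. In keratinocytes 5.16% of all genes passed it downward and 2.45% upward. Cry2, a partner of the PER proteins and a gene of the output phase, was at 68.1 CPM in wildtype and 43.7 in Eppk1-/- keratinocytes (log2 -0.64, -0.75 to -0.54). In fibroblasts it was at 149 and 82.1 CPM (log2 -0.86, -0.96 to -0.77). There 17 of the 18 could be counted, with 3 past the rule downward (Cry2, Nampt at -0.76 and Ciart at -0.67), and Arntl2 was past it upward at 0.98, where 7.35% and 8.67% of all genes were. Nampt makes NAD, and Ciart is a repressor of the loop. Arntl2, a relative of Arntl, was at 7.72 CPM in wildtype and 15.3 in Eppk1-/- fibroblasts. In macrophages 14 could be counted, 7 higher and 7 lower, with Btrc alone past the rule at -0.51. There 20.1% of all genes were past it downward and 6.23% upward. Their median was -0.01 in keratinocytes, -0.09 in fibroblasts and -0.02 in macrophages, beside -0.03, 0.05 and -0.14 for all genes counted.

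Glucocorticoid target genes, listed because adrenal hormone is one of the daily signals to the skin, differed in the same direction as the output members in keratinocytes and fibroblasts. Of 10 such genes, 9 were lower in Eppk1-/- keratinocytes (median log2 ratio -0.37) and 9 in fibroblasts (-0.30), while 6 were higher in pooled macrophages (0.13). Over all genes counted, 6526 of 11773 were lower in keratinocytes, 4927 of 11731 were lower in fibroblasts and 3271 of 9122 were higher in macrophages. Of the 10, all were lower in basal (median -0.36) and follicle keratinocytes (-0.92), but 6 in differentiated ones (-0.07). In sebaceous cells, where Dbp was higher, 10 of 10 were lower (-0.55). Over all genes, 6022 of 10655, 2891 of 5591, 4398 of 9616 and 3432 of 5699 were lower, in that order. Within macrophages, 3 of the 10 were higher in the Ccl8 cluster (median -0.20, beside -0.14 for all genes counted there). In the Stab1 cluster 7 were higher (0.22, beside -0.10 for all genes). Fkbp5, a chaperone of the hormone receptor, had the largest ratio in keratinocytes at -1.79 (66.6 and 19.3 CPM), and Tsc22d3 the largest in fibroblasts at -0.96 (373 and 192 CPM). The part of this list in the results was not tested. The early genes of dissociation were lower in 14 of 16 cases in keratinocytes (median -0.20) and in 7 of 16 in fibroblasts (median 0.03), and their part was not tested.

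Levels of a single gene also differed between cell types in both libraries. Hlf was highest in T and NK lymphocytes (172 CPM in wildtype and 239 in Eppk1-/-), then keratinocytes (44.4 and 42.0) and fibroblasts (8.24 and 6.65), and it was below these in sebaceous cells and macrophages. Within lymphocytes Hlf was at 528 and 471 CPM in the cluster led by Icos and Gzmc. In the one led by Trdc it was at 26.6 and 21.2 CPM, on 8 and 4 UMIs. In mast cells it had no UMI, which with a floor of 3 counts allows up to 24.9 CPM in wildtype and 19.5 in Eppk1-/- cells. Per1 was highest in mast cells (1189 and 1152) and in T and NK lymphocytes (1171 and 965), 2 types whose values overlapped, and lowest in sebaceous cells (127 and 109). Its values in keratinocytes (416 and 361) and macrophages (286 and 427) overlapped too. Dbp was highest in sebaceous cells (59.3 and 96.8), and its ranges in fibroblasts (14.9 to 42.3) and macrophages (14.6 to 22.3) overlapped. Arntl was highest in keratinocytes (55.7 and 63.7). In T and NK lymphocytes it was at 49.1 and 47.7 on 27 UMIs, with counting intervals that reached past the keratinocyte values. Nr1d1 ranked first in keratinocytes (349 and 276), but the range of the 2 libraries overlapped that of fibroblasts (313 and 129). Npas2 was highest in fibroblasts among the gated types (15.1 and 21.2). Its values in keratinocytes (12.9 and 13.2) and sebaceous cells (14.3 and 11.1) overlapped. Basal keratinocytes alone were at 20.8 and 19.5, within the range of fibroblasts. In macrophages Npas2 was at 0.821 and 0.251 on 4 and 1 UMIs, too few to set apart from carried-over keratinocyte RNA.

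The genes closest to the output members in pattern were sought by the root mean square difference from their median log2 ratio in keratinocytes, fibroblasts and macrophages, over 8630 genes counted in all 3. They were Kdm7a (difference 0.07), Fbxo44 (0.07), Rtn2 (0.08), Vsig10l (0.08) and Tmem154 (0.12). Over all 6 types, with 669 genes, they were Pgrmc1 (0.25), Furin (0.27), Ivns1abp (0.28), Fam107b (0.28) and Cebpb (0.28).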

How the data were processed

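Fixed cells of whole dorsal skin were profiled with probes (10x Flex), 1 library per genotype. The deposited values are UMI counts per gene and cell, which the authors made with Cell Ranger 8.0.1 against mm10. The count tables hold 9179 wildtype and 8811 Eppk1-/- cells. The filter the study states was applied to cells, namely between 200 and 45000 UMIs, between 100 and 7500 genes and no more than 10% of UMIs from mitochondria, and 13 mitochondrial genes were left out.

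A cell was gated to a type where its best marker score was at least 0.3, rested on 3 or more markers and was at least 1.5 times the next score. The authors' cell annotation was not used here. Counts were summed per type and library and given as CPM. The log2 ratio adds 0.5 UMI to each sum, with an exact conditional binomial interval; CPM intervals are exact Poisson. Both cover counting error only, and PCR and capture error lie outside them. Genes with at least 50 UMIs over both libraries were counted. Levels were not compared between genes, since probes per gene differ. Every member was named in each type with at least 50 cells per library; other clock genes were named where past the size rule in keratinocytes or fibroblasts, except that 1 result of that list is not reported here. Members and lists were chosen with earlier results of these data known.

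Clusters came from Leiden clustering (igraph 0.11.9, resolution 1) on 50 components. These were taken from 2000 variable genes (scanpy 1.11.5), with the clock genes and Eppk1 left out. The gate was compared with clusters, a stricter gate, TMM (edgeR 4.0.16) and median scaling, other cell filters, doublet removal, thinning and removal of shared droplets. Doublets were kept in the main values: the Scrublet threshold marked 0 wildtype and 204 Eppk1-/- cells, so the 5% of highest scores were removed in the alternative (444 and 431 cells). Scripts were tested on simulated counts.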

Additional observations from a re-analysis of the deposited data

Results flagged for a closer look

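Ratios on opposite sides of 0, each with an interval clear of 0, were found in 11 comparisons, each of 1 gene between 2 cell types. All types came from the same 2 mice and none of these differences was tested. How often such pairs occur over all genes was not computed. From keratinocytes to macrophages the log2 ratio of Eppk1-/- over wildtype differed by 1.36 for Dbp, 1.37 for Tef, 0.66 for Nr1d1, 0.78 for Per1 and -0.58 for Arntl. From fibroblasts to macrophages it differed by 2.12 for Dbp, 1.55 for Tef and 1.60 for Nr1d1. Within the Ccl8 and Cd209b macrophage cluster the ratios of Dbp, Tef and Nr1d1 were -0.05, 0.07 and -0.01, and in the Stab1 and C1qb cluster 0.75, 0.66 and -0.07, the first pair on under 50 UMIs. These pairs use macrophages pooled over clusters, and Dbp there was at -0.028 with each cell weighing the same. Arntl was at 0.11 (-0.40 to 0.65) within the Ccl8 cluster. It was at -1.18 (-2.73 to 0.05) in the Stab1 cluster, on under 50 UMIs. Dbp in sebaceous cells differed by 1.44 from keratinocytes, and by -2.20 counted from sebaceous cells to fibroblasts. Per1 differed by -0.86 from macrophages to T and NK lymphocytes. The lymphocyte ratio of Per1 reached -0.02 under other settings. It was 0.23 in the Icos and Gzmc cluster and -0.20 in the Trdc cluster, each with an interval that held 0.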

How the results depend on the processing

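No paired analysis was possible because each genotype has 1 library. Over 62 ratios of single members, 710 values under other settings were computed. Of these, 655 stayed within the interval of the reported ratio and 54 lay outside it. The other 1 changed sign from a reported ratio past the size rule. That one was Dbp in macrophages, 0.61 as reported and -0.028 with each cell weighing the same. Ratios short of the rule changed sign too, some with a reported interval clear of 0. Nr1d1 in macrophages, 0.33 as reported, reached -0.05, and Arntl there, -0.39 as reported, reached 0.09. Arntl in differentiated keratinocytes, 0.22 as reported, reached -0.18. In keratinocytes the count of members past the rule downward was 1 with no cell filter and 1 with each cluster weighing the same, against 2. In fibroblasts the count downward, 5 as reported, ranged from 4 to 6. The count upward there was 1, against 0, under the stricter gate, with each cell or each cluster weighing the same, with high doublet scores removed, thinned to 2000 UMIs and with shared droplets left out, and the median of the output members was -0.91 when thinned. In macrophages the count upward, 4 as reported, was 1 with each cell weighing the same, when thinned and with clusters mainly of 1 library left out, and 0 with each cluster weighing the same. The count downward there was 1, against 0, with no minimum of UMIs and with each cluster weighing the same. The settings that weigh or leave out clusters or take off carried-over RNA were chosen after seeing the data. The stricter gate gave no value for follicle, sebaceous and mast cells, nor clusters for follicle cells, nor stricter cells, thinning and shared droplets for mast cells. Dbp in fibroblasts ranged from -1.79 to -1.41 and Nr1d1 from -1.43 to -0.98 over all settings. Depth limits Hlf, Per3 and Npas2 in macrophages and all members but Per1 in mast cells, which had under 50 UMIs.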

Other observations

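Cells led by Cd207, the langerin gene of Langerhans cells, mostly met no gate and formed a cluster of 156 wildtype and 116 Eppk1-/- cells. Nr1d1 in it was at 117 CPM in wildtype and 76.1 in Eppk1-/- cells (log2 -0.62, -1.10 to -0.16). Nr1d2 was at 79.6 and 84.1 CPM (log2 0.08, -0.41 to 0.56), Arntl at 30.4 and 34.7 CPM, and Per1 at 515 and 491 CPM. Cells gated as dendritic and Langerhans cells, 26 wildtype and 38 Eppk1-/- in all, held 0 and 1 UMI of Nr1d1. The cluster also held 23 wildtype and 19 Eppk1-/- gated keratinocytes, so its Nr1d1 level cannot be assigned to Langerhans cells.

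Hlf in the lymphocyte cluster led by Icos and Gzmc, of 113 wildtype and 129 Eppk1-/- cells was at 528 and 471 CPM (log2 -0.17, -0.50 to 0.17), above its 172 and 239 CPM over all gated T and NK lymphocytes. In the lymphocyte cluster led by Trdc, with 119 and 81 cells, Hlf was at 26.6 and 21.2 CPM on 8 and 4 UMIs. Nr1d1 in the Trdc cluster was at 140 and 74.0 CPM (log2 -0.88, -1.90 to -0.01). Over all gated T and NK lymphocytes Nr1d1 went the other way, on 13 wildtype and 28 Eppk1-/- UMIs (log2 1.14, 0.18 to 2.25). Of the cells in the Trdc cluster, 97 wildtype and 64 Eppk1-/- cells were gated as T and NK lymphocytes. The direction of Nr1d1 in lymphocytes thus depended on which cells were taken.

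Among keratinocyte clusters, wildtype Dbp ranged from 7.70 to 53.5 CPM where it could be counted. The Dbp ratio in the cluster at the top of that range, led by Krt24, Lgr5 and Lhx2 with 441 wildtype and 223 Eppk1-/- cells, was -0.83 (-1.52 to -0.22), and Per1 there was at 924 and 709 CPM (log2 -0.38, -0.52 to -0.25).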
